A study of Mus musculus with 7 samples.

Results

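The genes described here are targets of the transcription factor ATF4 and the cytosolic aminoacyl-tRNA synthetases, read in germinal centre B cells of mice with and without R-Ras2. A list of 36 genes was used, and a gene was taken where the array held a probe that the platform annotation assigns to that gene alone, with the brightest probe kept where there were several. Of the 36 genes 32 were found, among 21515 genes on the array, and all 32 were bright enough to be tested. Mars was matched through its gene ID, since the annotation calls it Mars1. Pycr1, Gls2, Aars and Dars were not analysed here.

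The cells were B220+CD95+GL7+ B cells sorted from spleen 7 days after the mice had received sheep red blood cells, a T cell-dependent immunogen. Wild-type (WT) mice gave 4 arrays and RRas2-deficient mice gave 3, described as biological replicates with no animal named. Both genotypes were immunized, so no array shows resting cells. The strain, the age and the extent of the Rras2 lesion are not given in the sources used here, and the description of the deficient samples writes Rras where their title and genotype write RRas2. The series asked how messenger RNA differs between the genotypes, and its title refers to energetically demanding processes.

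ATF4 is made when a kinase that senses amino acid shortage, endoplasmic reticulum stress, haem shortage or viral RNA phosphorylates the initiation factor eIF2. It then switches on genes for amino acid synthesis and uptake, genes for tRNA charging, and stress regulators such as Ddit3 and Trib3. Aminoacyl-tRNA synthetases join each amino acid to its tRNA and so supply every round of translation, and many of their genes are both ATF4 targets and part of the growth programme of dividing cells. They fall into class I and class II by the fold of the catalytic domain. Germinal centre B cells divide fast, which makes a steady supply of charged tRNA and of amino acids part of their biology.

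ATF4 binds with C/EBP family partners to a composite site whose letters are often given as TGATGNAA. RefSeq promoter windows (GRCm38.p6) of 300 bases, from 250 before to 50 after each annotated gene start, were available for 25 of the 32 genes. The 7 genes not searched were all synthetases (Cars, Hars, Lars, Nars, Rars, Vars and Wars). The windows of 10 of the 25 (40%) held TGATGNAA on either strand, against 1219 of 27025 genes (4.51%) and 1304 of 32851 windows (3.97%) over all. As the list was drawn up around ATF4 targets, that share is a description and was not tested. No other motif was searched. The 10 genes were 4 ATF4 axis genes, 2 amino acid enzymes, 2 class I and 2 class II synthetases. Their matches are printed because the letters are shared across roles that behaved differently on the arrays. Each line gives 30 bases on the gene's own strand with the match in capitals, which reads TGATGNAA or its reverse complement.

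Chac1: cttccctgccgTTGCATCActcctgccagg
Nupr1: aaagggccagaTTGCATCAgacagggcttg
Vldlr: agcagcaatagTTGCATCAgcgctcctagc
Trib3: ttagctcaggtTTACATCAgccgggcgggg
Asns: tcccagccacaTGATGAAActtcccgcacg
Got1: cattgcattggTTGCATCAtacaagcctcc
Yars: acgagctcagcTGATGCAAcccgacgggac
Iars: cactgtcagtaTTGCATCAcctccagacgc
Gars: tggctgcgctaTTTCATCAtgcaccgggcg
Tars: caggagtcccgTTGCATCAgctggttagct

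The match began 193 bases before the start in Chac1 (chr2:119351038-119351067), 110 before in Nupr1 (chr7:126625562-126625591), 200 before in Vldlr (chr19:27216809-27216838, in 1 of its 2 windows) and 102 before in Got1 (chr19:43524689-43524718). It began 23 bases before the start in Asns (chr6:7693214-7693243), 30 before in Gars (chr6:55037960-55037989) and 15 before in Tars (chr15:11399655-11399684). In Trib3 (chr2:152344028-152344057), Yars (chr4:129189895-129189924) and Iars (chr13:49682126-49682155) it lay in the first transcribed bases, beginning at base 15, base 4 and base 8. Asns, asparagine synthetase, is a textbook ATF4 target, and its 250 bases before the start (chr6:7693210-7693459, minus strand) are shown whole with the match in capitals.

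Asns: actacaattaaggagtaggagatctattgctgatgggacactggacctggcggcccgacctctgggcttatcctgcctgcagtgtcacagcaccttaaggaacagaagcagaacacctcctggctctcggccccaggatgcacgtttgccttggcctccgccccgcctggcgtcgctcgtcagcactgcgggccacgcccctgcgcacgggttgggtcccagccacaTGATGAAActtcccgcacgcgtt

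A match is a description of these letters and not evidence of binding in these cells. The median genotype difference was -0.043 in the 10 genes with a match and -0.058 in the 15 without, on the log2 scale, and -0.16 and -0.12 with 2 sets of arrays of unlike spread taken as a block, so the order of the groups turned.

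The arrays differed among themselves in ways that bear on every value below. The interquartile range of all log2 intensities was 2.37 to 2.49 on 3 arrays (WT replicates 1 and 2 and RRas2-deficient replicate 2, called narrower here) and 2.69 to 2.91 on the other 4 (WT replicates 3 and 4 and RRas2-deficient replicates 1 and 3, called wider). Of the 4 wider arrays, the 2 WT ones had the larger ranges and the 2 deficient ones the smaller. WT replicate 3 stood apart in its sex-linked genes, with Xist at 6.61 against 9.43 to 10.29 on the other 6 arrays and Kdm5d at 6.48 against 3.68 to 4.97. The 9 measured germinal centre B cell markers averaged 7.97 (Fas, which encodes CD95) to 11.63 (Cd79a) over the arrays. The 7 T cell markers averaged 3.89 to 5.41, and 7 of the 8 tested myeloid markers 3.48 to 5.47, while the myeloid marker Cd68 averaged 7.28. Rras2 itself averaged 7.90 ± 0.74 (SD, n = 4) in WT and 6.91 ± 0.22 (SD, n = 3) in deficient cells, a 1.98-fold difference. Its genotypes did not overlap, as in 1.08% of all genes, but the highest deficient array (7.12) lay just below the lowest WT array (7.13). Its limma p was 0.042 unadjusted and 1.00 adjusted, so the comparison did not call Rras2 itself. With the array sets as a block the difference was -1.13 ± 0.20 (SE, limma adjusted p = 0.296).

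No gene of the ATF4 and synthetase list changed between the genotypes past an adjusted p of 0.05 (limma, Benjamini-Hochberg over 16136 genes), where 0.0124% of all genes tested did. At an unadjusted p under 0.05 the count was also 0 of 32, against 0.818% of all genes. In the deficient cells 22 of the 32 had a lower mean and 10 a higher one, where 48.3% of all genes were lower, and the median difference was -0.062 against 0.0049 over all genes. The differences ran from -0.27 (Asns) to 0.24 (Vars), so no mean differed by more than 1.21-fold. That count depended on single arrays: without WT replicate 3 only 11 of 32 were lower and the median was 0.10, and without RRas2-deficient replicate 2 it was 13 of 32 with a median of 0.061. The limma 95% interval lay within a 1.5-fold change either way for 9 of the 32 genes and within a 2-fold change for 22, so with 7 arrays a 2-fold change lay within reach of the interval for the other 10.

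**Figure D1:**
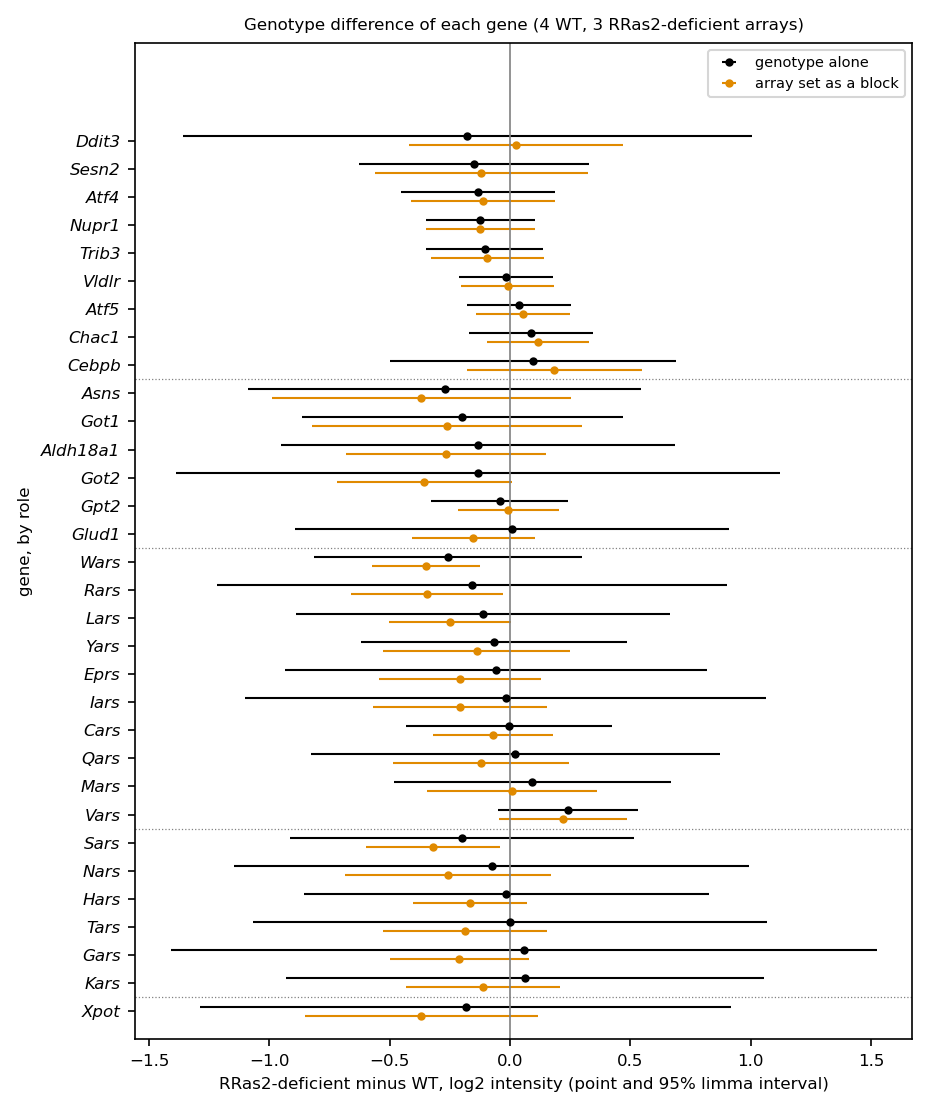
Difference between RRas2-deficient and WT cells (log2 intensity, x axis) for each of the 32 genes (y axis, grouped by role with dotted lines), as a point with its 95% limma interval, from genotype alone (black) and with the array set as a block (orange). All 32 black intervals cross 0, and the orange intervals of Wars, Rars and Sars do not.

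The synthetases differed more between the 2 sets of arrays than between genotypes, with Vars as the exception. All 16 had a higher mean on the wider arrays, by a median of 0.85, where 85.1% of the 3837 genes in their range of mean levels (6.65 to 9.23) were higher. All 9 ATF4 axis genes had a lower mean there, with a median of -0.14, where 51.3% of the 14168 genes in their range of levels (3.71 to 8.74) were lower. That range is no close match of level, since the axis genes other than Atf4 and Ddit3 averaged only 3.71 to 5.58. In 14 of the 16 synthetases every wider array read above every narrower one. That pattern held for 26.9% of all genes tested and for 61.9% of the 3837 genes in the range of the synthetases. The difference between sets was 0.47 in the median of those 3837 genes. The share of a gene's variance over the 7 arrays that lay between the sets was 82.7% in the median synthetase, 18.4% in the median ATF4 axis gene and 47.7% in the median of all genes. The share between the genotypes was 2.07% in the median of the 32 genes and 4.92% in that of all genes. It was larger than the share between the sets in 3 of the 32, Nupr1, Trib3 and Vars. The sets were parted by the spread of the values themselves, so these figures are a description with no test, and both genotypes occur in each set.

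**Figure D2:**
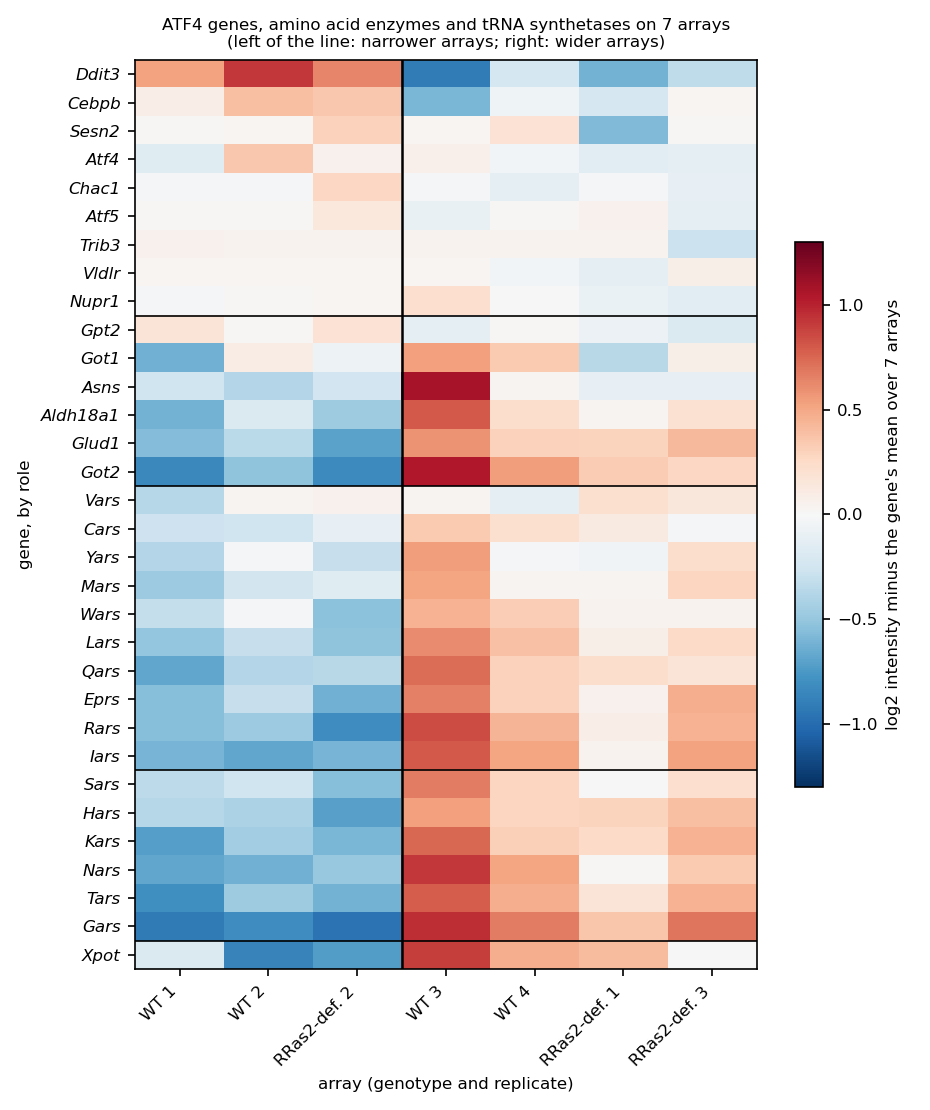
Heat map of the log2 intensity of each gene (y axis, by role) minus its own mean over 7 arrays, for each array (x axis, narrower arrays left of the vertical line and wider ones right of it). Of the 16 synthetases 15, all but Vars, lie below their own mean on each of the 3 narrower arrays and are highest on WT replicate 3, while Ddit3 is highest on the narrower arrays.

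With the array set as a block in limma, 26 of the 32 genes were lower in the deficient cells, where 50.9% of all genes were, and the median difference was -0.15 against -0.0033. Part of that background rises with brightness: among the 3837 genes in the level range of the synthetases 72.7% were lower with the block and 56.2% without it, beside 14 of 16 and 10 of 16 synthetases. The adjusted threshold was passed by 0 of 32. An unadjusted p under 0.05 was reached by 3 of 32, all lower (Wars, Sars and Rars, 9.38%), against 10.1% of all genes in either direction and 6.24% lower, so 3 genes lie near the background. Leaving out 1 array at a time with the block kept gave 22 to 27 lower genes and a median of -0.23 to -0.083. The count under an unadjusted p of 0.05 then ran from 1 (without WT replicate 3 or RRas2-deficient replicate 1) to 6 (without WT replicate 1), with 5 without WT replicate 4, and the share of all genes from 6.92% to 13%. The same genes were not alike in the 2 sets: 27 of 32 were lower within the wider arrays (median -0.22), where 53% of all genes were, and 15 of 32 within the narrower ones (median 0.0011), which hold 1 deficient array and where 47.3% of all genes were lower. When the sets were replaced by each array's interquartile range as a covariate, 17 of 32 were lower and the median was -0.019. Whether the lower values in the wider set go with genotype or with the smaller range of those deficient arrays cannot be told apart.

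**Figure D3:**
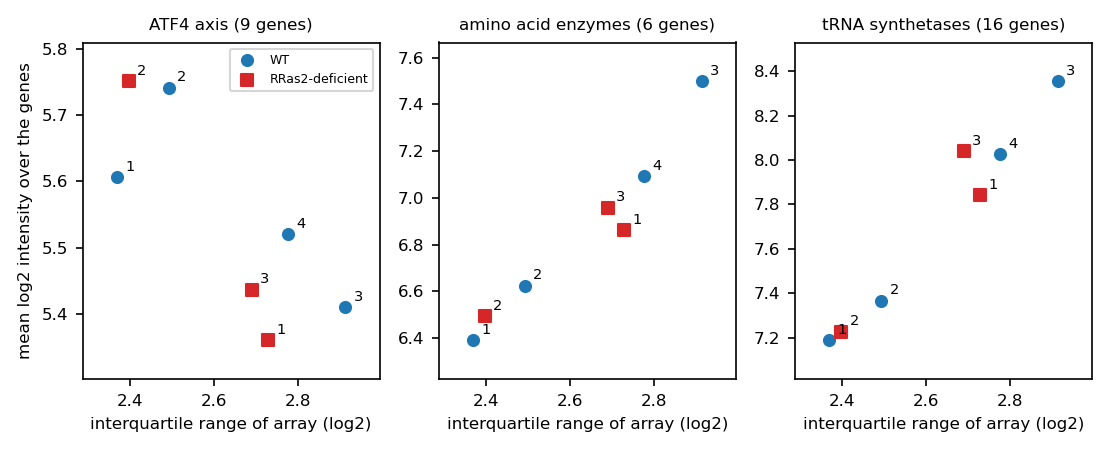
Mean log2 intensity over the genes of each role (y axis) against the interquartile range of the array in log2 units (x axis), 1 point per array with its replicate number, WT as circles and RRas2-deficient as squares. The synthetase mean is 7.19 to 7.37 on narrower arrays against 7.84 to 8.35 on wider arrays, and the ATF4 axis mean is 5.61 to 5.75 against 5.36 to 5.52.

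Among the regulators, Atf4 (gene ID 11911), which encodes the factor itself and is controlled largely at translation, was bright on all arrays. In WT cells, in the order of replicates 1 to 4 used throughout, it read 8.59, 9.08, 8.81 and 8.71, and in deficient replicates 1 to 3 it read 8.59, 8.79 and 8.61. The deficient values lay inside the WT range, and the difference was -0.13 ± 0.14 (SE, limma adjusted p = 1.00, as for every listed gene in the comparison of genotype alone). An array of messenger RNA does not show ATF4 protein.

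Ddit3 (gene ID 13198), the stress-induced factor CHOP, varied most within this role. It read 7.32, 7.72, 5.89 and 6.57 in WT and 6.18, 7.43 and 6.47 in deficient cells. The 3 narrower arrays were the 3 highest in both genotypes, with a mean of 7.49 against 6.28 on the wider arrays. The genotype difference was -0.18 ± 0.50 (SE) and 0.025 ± 0.19 with the set as a block, which turns its sign. Cebpb, a C/EBP partner of ATF4, followed the same order, with 5.47, 5.77, 4.78 and 5.32 in WT and 5.17, 5.73 and 5.40 in deficient cells. Its genotypes overlapped, at 0.10 ± 0.25 (SE). Ddit3 and Cebpb were the 2 genes of the list whose narrower arrays all read above the wider ones, a pattern of 13.6% of all genes.

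The other stress effectors read lower than Atf4 and Ddit3, with mean levels from 3.71 (Vldlr) to 5.58 (Atf5). Chac1, which degrades glutathione and is among the genes most induced by ATF4 in stressed cells, read 4.98, 4.98, 4.98 and 4.88 in WT and 4.98, 5.26 and 4.89 in deficient cells. Trib3, a pseudokinase that restrains ATF4, read 4.495, 4.485, 4.485 and 4.485 in WT and 4.485, 4.493 and 4.17 in deficient cells. Each of these held the identical value on 4 arrays, as did Vldlr, so the small WT spread (0.0049 for Trib3) is not a measure of biological spread. Nupr1, a small stress-induced nuclear protein, read 4.96, 4.98, 5.19 and 4.97 in WT and 4.88, 5.0004 and 4.83 in deficient cells, a difference of -0.12 ± 0.10 (SE), and the genotypes overlapped at WT replicates 1, 2 and 4. Sesn2, a leucine sensor upstream of mTORC1, ranged more widely, with 5.32, 5.33, 5.33 and 5.49 in WT and 4.73, 5.61 and 5.32 in deficient cells. Its deficient arrays held both the lowest and the highest value, and the difference was -0.15 ± 0.20 (SE). The ATF4 relative Atf5 differed by 0.037 ± 0.091 and the lipoprotein receptor Vldlr by -0.016 ± 0.082. None of these 6 had a limma 95% interval reaching a 2-fold change.

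Of the 6 amino acid enzymes 5 had a lower mean in the deficient cells, and none passed. Asns (gene ID 27053), which makes asparagine from aspartate and glutamine, had the lowest difference of the list. It read 5.38, 5.26, 6.72 and 5.68 in WT and 5.53, 5.40 and 5.53 in deficient cells. WT replicate 3 alone stood more than 1 log2 unit above the rest. The difference was -0.27 ± 0.34 (SE) with that array and 0.047 without it.

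The transaminases tie amino acid synthesis to the mitochondrion and to the malate-aspartate shuttle. Got1, the cytosolic aspartate transaminase, read 6.25, 6.97, 7.41 and 7.22 in WT and 6.52, 6.82 and 6.95 in deficient cells (-0.20 ± 0.28, SE). Got2, its mitochondrial counterpart, read 8.59, 8.91, 10.47 and 9.97 in WT and 9.76, 8.60 and 9.69 in deficient cells. Got2 lay 1.28 higher on the wider arrays than on the narrower ones, and its genotype difference was -0.13 ± 0.53 (SE) alone and -0.36 ± 0.15 with the set as a block (limma adjusted p = 0.500). Gpt2, the mitochondrial alanine transaminase, read 4.20, 4.05, 3.92 and 4.05 in WT and 3.96, 4.22 and 3.85 in deficient cells and did not share that pattern, at -0.21 between wider and narrower arrays.

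Glud1, glutamate dehydrogenase, read 7.65, 7.86, 8.80 and 8.52 in WT and 8.50, 7.51 and 8.64 in deficient cells. The means differed by 0.0080 ± 0.38 (SE), and every wider array read above every narrower one. Aldh18a1, which starts proline synthesis from glutamate, read 6.27, 6.69, 7.68 and 7.11 in WT and 6.91, 6.42 and 7.08 in deficient cells, a difference of -0.13 ± 0.34 (SE) that turned to 0.11 without WT replicate 3.

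**Figure D4:**
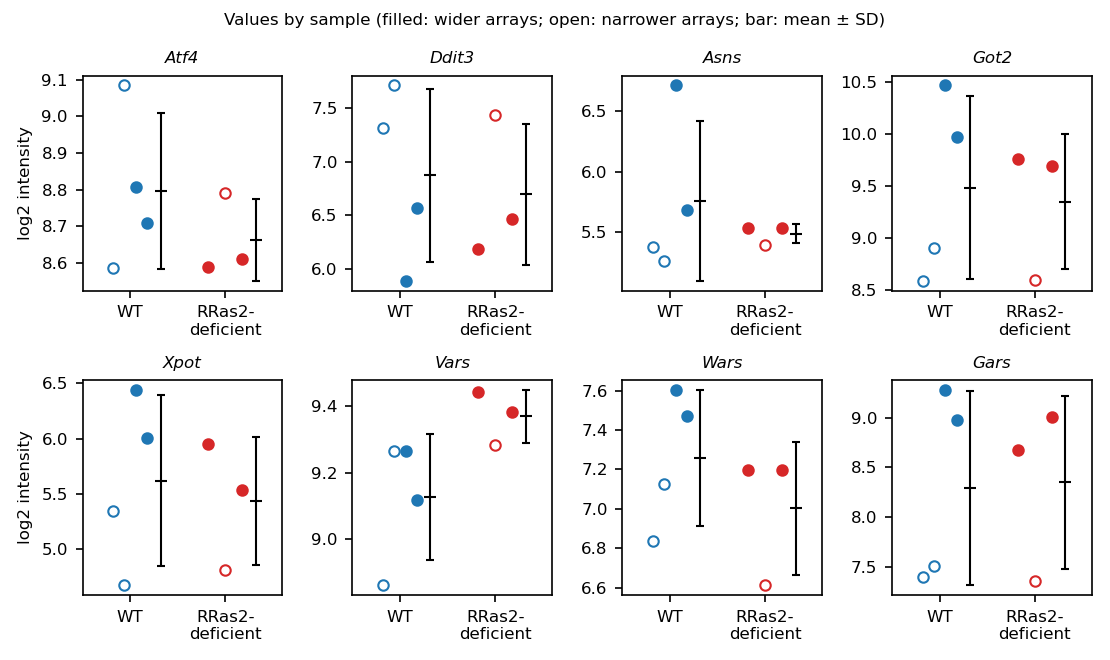
Log2 intensity (y axis, scaled to each gene) of 8 genes on each array, WT in blue and RRas2-deficient in red, filled for wider and open for narrower arrays, with the group mean ± SD as a bar (n = 4 and n = 3). Vars has all 3 deficient arrays above all 4 WT arrays, and the other 7 genes overlap.

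The synthetases were lower in the mean in 10 of 16 cases, with a median difference of -0.017, and none passed. By class the counts were 7 of 10 lower in class I and 3 of 6 in class II, with medians of -0.038 and -0.0072. With the set as a block they were 8 of 10 and 6 of 6, and with the covariate 4 of 10 and 1 of 6.

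Vars (gene ID 22321), the valyl-tRNA synthetase, was the sole gene of the list whose genotypes did not overlap, where 1.08% of all genes did not. It read 8.86, 9.27, 9.27 and 9.12 in WT and 9.44, 9.29 and 9.38 in deficient cells, so the lowest deficient array lay just above the highest WT arrays. The difference was 0.24 ± 0.12 (SE, limma adjusted p = 1.00), with a 95% interval from -0.049 to 0.53, and its unadjusted p was the lowest of the 32 genes. It was 0.22 within the narrower and 0.22 within the wider arrays. With each array left out in turn it stayed above 0, at 0.15 to 0.29. Vars also differed least between the sets among the synthetases, at 0.16.

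Wars (gene ID 22375), the tryptophanyl-tRNA synthetase, an interferon-inducible member of the family, ran the other way. It read 6.84, 7.13, 7.60 and 7.47 in WT and 7.20, 6.61 and 7.20 in deficient cells. Within the narrower set the 1 deficient array lay below both WT arrays (-0.37), and within the wider set both deficient arrays did so (-0.34). The 2 wider deficient arrays held the identical value, so their lack of spread is not a measure of biological spread. The genotype difference was -0.26 ± 0.23 (SE) alone and -0.35 ± 0.095 with the set as a block (limma adjusted p = 0.354), which did not pass.

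Sars, the seryl-tRNA synthetase, read 7.72, 7.80, 8.73 and 8.33 in WT and 8.05, 7.50 and 8.28 in deficient cells, a difference of -0.20 ± 0.30 (SE) alone and -0.32 ± 0.12 with the block (limma adjusted p = 0.440). Rars, the arginyl-tRNA synthetase, read 7.33, 7.41, 8.73 and 8.33 in WT and 7.97, 7.08 and 8.34 in deficient cells, at -0.16 ± 0.45 (SE) and -0.35 ± 0.13 (limma adjusted p = 0.457). Both genes put RRas2-deficient replicate 2 lowest and WT replicate 3 highest. Gars, the glycyl-tRNA synthetase, differed most between the sets, at 1.56, and by 0.056 ± 0.62 (SE) between genotypes. The other 11 synthetases differed between genotypes by -0.11 (Lars) to 0.092 (Mars) and between sets by 0.38 (Cars) to 1.10 (Iars).

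Xpot, the exportin that carries mature tRNA out of the nucleus, read 5.35, 4.67, 6.44 and 6.01 in WT and 5.95, 4.81 and 5.53 in deficient cells. It followed the synthetases across the sets, at 1.04 higher on the wider arrays. The genotypes overlapped, with a difference of -0.19 ± 0.46 (SE) and -0.37 ± 0.20 with the block.

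Other genes of the pathway gave no call either, in 4 lists tested in the same limma fit. Of 14 genes that sense amino acids and stress or act on eIF2, 0 passed, 6 were higher and 8 lower. The amino acid sensor kinase gene Eif2ak4, which encodes GCN2, differed by -0.10 ± 0.20, the endoplasmic reticulum sensor kinase gene Eif2ak3 by 0.28 ± 0.22 and the eIF2 beta subunit gene Eif2s2 by 0.18 ± 0.12 (SE). Of 23 tested ATF4 partners and further ATF4-responsive genes 0 passed, 11 were higher and 12 lower, with differences from -0.52 (Slc7a5) to 0.11 (Psph). With the array set as a block 17 of the 23 were lower (median -0.096), where 50.9% of all genes were, and 0 passed. An unadjusted limma p under 0.05 was then reached by 4 of 23, all lower, against 6.24% of all genes lower. These 4, Map1lc3b, Shmt2, Mthfd2 and Slc7a5, averaged 7.10 to 8.72. That lies in the level range of the synthetases, where 72.7% of genes were lower with the block. Slc7a5 differed by -0.75 ± 0.19 (SE) with the block. The mTORC1 inhibitor gene Ddit4 read 6.11, 6.06, 5.91 and 6.27 in WT and 5.58, 5.89 and 5.91 in deficient cells (-0.30 ± 0.13, limma adjusted p = 1.00), and Slc38a2, an amino acid transporter, differed by -0.19 ± 0.12.

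The synthetases of the mitochondrion are mostly encoded by genes of their own. Of 19 genes of mitochondrial tRNA charging 0 passed, 12 were higher and 7 lower in deficient cells, and the median difference between the sets was 0.19, beside 0.85 for the cytosolic synthetases. The 2 lists lie at unlike levels, with gene means of 4.38 to 7.03 and of 6.65 to 9.23. The median difference between the sets was 0.47 among all genes at the level of the cytosolic synthetases and -0.024 over all genes tested. The mitochondrial tryptophanyl-tRNA synthetase gene Wars2 read 4.26, 4.32, 4.23 and 4.39 in WT and 4.41, 4.66 and 4.39 in deficient cells. The difference was 0.19 ± 0.10 (SE, limma adjusted p = 1.00), opposite in sign to Wars. The lowest deficient array (4.3949) lay barely above the highest WT array (4.3911). Such a lack of overlap was seen in 1 of these 19 genes and in 1.08% of all genes. Sars2 differed by 0.17 ± 0.16. Of 8 cytosolic partners, such as the phenylalanyl-tRNA synthetase subunits and scaffold proteins of the multisynthetase complex, 0 passed and 6 were lower. Eef1e1, a scaffold protein of that complex, differed by -0.34 ± 0.48 and the exportin gene Xpo5 by -0.16 ± 0.22 (SE). The median of these 8 between the sets was 0.78. No difference between lists was tested.

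Plasma cells carry a high secretory and amino acid load, and all 8 of their markers had a lower mean in the deficient cells. The median difference was -0.16 with 0 calls, where 48.3% of all genes were lower. On the narrower arrays their mean level was 6.74 and 6.75 in WT and 6.49 in deficient cells. On the wider arrays it was 7.06 and 6.96 in WT and 6.65 and 6.87 in deficient cells. With the set as a block all 8 were lower (median -0.25, 0 calls), where 50.9% of all genes were. With the interquartile range as a covariate 7 of 8 were lower, where 45.3% of all genes were. Jchain, the joining chain of secreted antibodies, read 7.76 to 10.06 in deficient and 8.67 to 10.48 in WT cells. Of the 7 T cell markers 6 were also lower (median -0.14). Their mean level was 4.88 on WT replicate 1 and 4.09 to 4.38 on every other array of either genotype. Of the 8 tested myeloid markers 2 were lower and 6 higher (median 0.092). The 9 germinal centre markers themselves were all higher on every wider array than on every narrower one. That pattern held for 26.9% of all genes tested and for 61.9% of those in the level range of the synthetases. Its share in the markers' own range of levels was not computed. Between genotypes alone 5 of the 9 markers were lower in deficient cells (median -0.0097), where 54.7% of the 1340 genes in their range of levels were. With the set as a block all 9 were lower (median -0.16), where 73% of those genes were, and with the interquartile range as a covariate 3 of 9 were. The part of these markers in the values above was not tested, and in RNA from a sorted population fewer cells of a type and less RNA per cell cannot be told apart.

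**Figure D5:**
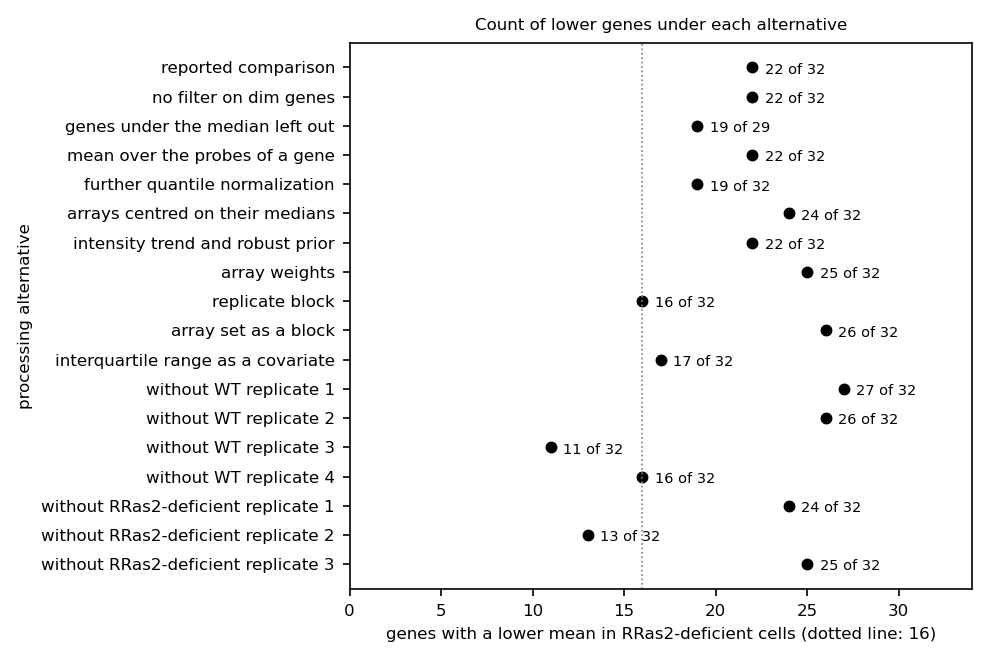
Number of the listed genes with a lower mean in RRas2-deficient cells (x axis, out of the number tested beside each point) in the reported comparison and under each alternative (y axis). The count runs from 11 without WT replicate 3 to 27 without WT replicate 1, around the 22 of the reported comparison.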

How the data were processed

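Each sample was read on its own whole-transcript Affymetrix array. The authors deposited log2 intensities, made with RMA and oligo per the submitters' processing notes, which give no version, and no source used here names the genome build. Of 25349 probes 22225 had 1 gene symbol. The brightest probe of a gene over 7 arrays was kept, and genes whose mean lay below the 25th percentile (3.48) were dropped, leaving 16136. Genotypes were compared with limma 3.58.1 in R 4.3.3 (two-sided, Benjamini-Hochberg over all genes tested, threshold 0.05), and the SE of a difference is limma's moderated one. No animal is named, so p-values measure only the spread between samples. Array sets were split at the widest gap in interquartile range (0.197). The genes, lists and array sets were chosen with earlier results of these data known. Values on every array are given for Atf4, Ddit3, Trib3, Chac1, Asns, Xpot and the genes of lowest p in each role, up to 4 without and 3 with the block. From each pathway list the 2 genes of lowest p are named. Sesn2, with its value on every array, and Eif2ak4, Gars, Jchain, Slc7a5, Psph, Map1lc3b, Shmt2 and Mthfd2 were added after their values were seen. So were the other listed genes named at the ends of a range. Precision is limited by the number of arrays.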

Additional observations from a re-analysis of the deposited data

Results flagged for a closer look

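Among 39 sets of 4 WT values, 6 held an array far from the other 3 by Dixon's ratio (the gap to the nearest value over the whole range), past the 95% critical value for 4 samples, where chance gives about 1 in 20. All 6 are ATF4 axis genes, with mean levels from 3.71 (Vldlr) to 5.58 (Atf5). In Atf5 WT replicate 3 read 5.48 against 5.59, in Trib3 WT replicate 1 read 4.495 against 4.485, in Chac1 WT replicate 4 read 4.88 against 4.98 and in Vldlr WT replicate 4 read 3.68 against 3.73. In each of these the other 3 arrays held 1 identical value, so the ratio was 1 by construction. In Sesn2 WT replicate 4 read 5.49 against 5.32 to 5.33 (ratio 0.959), and in Nupr1 WT replicate 3 read 5.19 against 4.96 to 4.98 (ratio 0.902). Values shared between arrays occurred in 5 of the 9 ATF4 axis genes, in 11 of the 32 listed genes and in 48.3% of all genes tested.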

How the results depend on the processing

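No listed gene passed an adjusted p of 0.05 under any alternative, and the lowest adjusted p of a named gene of the list was 0.354 (Wars, array set as a block). Over all genes the count of 2 calls became 1 with arrays centred on their medians, 5 with array weights and 0 with the replicate block, and 0 to 2 with any 1 array left out. The 22 lower genes became 11 to 27 with any 1 array left out, and the 26 with the array set as a block became 22 to 27, an alternative chosen after seeing the data. The 0 genes under an unadjusted p of 0.05 became 1 with a further quantile normalization, 3 with array weights, 3 with the array set as a block, 2 with the interquartile range as a covariate and 0 to 1 with any 1 array left out. Of 168 differences of 17 named genes under the other 10 alternatives 164 kept their sign. The exceptions were Ddit3 (0.025) and Glud1 (-0.15) with the array set as a block, Glud1 with centred arrays (-0.012) and Got2 with the replicate block (0.029), and the cause was not tested. With 1 array left out at a time 23 of 119 turned, with ranges of -0.55 to 0.10 for Ddit3, -0.16 to 0.0011 for Trib3, -0.021 to 0.17 for Chac1, -0.44 to 0.047 for Asns, -0.50 to 0.13 for Xpot, -0.087 to 0.24 for Cebpb, -0.36 to 0.11 for Aldh18a1, -0.15 to 0.036 for Gpt2, -0.43 to 0.24 for Got2, -0.20 to 0.36 for Glud1, -0.37 to 0.021 for Sars and -0.43 to 0.20 for Rars. Whether the replicate numbers pair the samples cannot be told from these values. The deviations of equal numbers correlated at -0.59, 0.78 and 0.66, and 4 of 6 samples correlated best with their own number. Replicates 2 of both genotypes were narrower arrays and replicates 3 wider ones, while replicates 1 fell in different sets. The replicate block gave 16 of 32 lower and sets WT replicate 4 aside.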
